A study of Mus musculus with 12 samples.

Results

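The ageing comparison of the series set the stromal vascular fraction (SVF) of inguinal fat from 12-month-old control mice against that of 2-month-old control mice. It took 8 of the 12 RNA-seq libraries, 4 at each age, chosen by their age and genotype labels and not by any measured value. The other 4 libraries, from 12-month-old mice with a knockout of Pdgfrb, the gene of a receptor for platelet-derived growth factor, enter only where their values are set beside those of the controls. Of 55536 genes listed, 16399 reached a value of 10 in 4 or more of these 8 libraries and were tested. The study asked how ageing changes the cells from which beige fat forms.

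All mice of both ages were males of a mixed C57BL6/J-129SV background kept at room temperature, and the labels call both control groups wild type. The study's own account names its 12-month controls as the Sma-Control model, which carries the tamoxifen-inducible Sma-CreERT2 allele, a Cre recombinase driven in cells that express smooth muscle actin, with a Rosa26 reporter. Whether the sequenced mice of each age carried Cre, or were given tamoxifen, is not given in the labels. In the knockout group the floxed Pdgfrb allele is deleted by this Cre after tamoxifen, so other cells of the fraction keep the gene. The labels describe every library as its own biological replicate, and do not say whether mice of an age were littermates.

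Fat depots are digested with collagenase and spun to give the SVF, the pellet left after the lipid-filled adipocytes float off. It holds fibroblast-like stromal cells, among them the progenitors that can become white or beige adipocytes, together with blood vessel cells, nerve sheath cells and resident immune cells. These cells build the collagen network of the depot, clear dead adipocytes and pass signals that govern whether progenitors divide or differentiate. In bulk RNA such as this, fewer cells of a type and less RNA per cell cannot be told apart.

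Values are counts that the authors divided by a size factor per library and rounded, called normalized counts here. They summed to 20.3 to 21.3 M per library at 2 months and 19.9 to 20.6 M at 12 months, from an estimated 21.0 to 29.0 M counts. The share of mitochondrial genome reads was 1.68% to 2.59% at 2 months and 0.80% to 1.20% at 12 months, with no overlap. The first principal component of the tested genes held 52.45% of the variance and set the ages apart. The second held 11.69% and had 12-month replicates 2 and 3 at its ends. Markers of fibroblastic stroma were high in every library. Pdgfra, a receptor gene of adipocyte progenitors, had 2388, 3302, 3351 and 2900 at 2 months and 4322, 4580, 4844 and 3726 at 12 months, and Gsn, which encodes the actin-severing protein gelsolin, had 118202, 133154, 140637 and 124653 at 2 months and 269596, 328743, 236700 and 227456 at 12 months. The 12-month libraries were higher for both genes, with log2 fold changes of 0.56 and 1.03. Other fibroblastic markers did not move together: Dcn rose, Col1a1 and Col3a1 fell and Lum did not pass, as given below.

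Higher, lower, rose and fell are used below only of genes with an adjusted p under 0.05 from limma, fitted to log2(value + 1) over all 16399 genes with Benjamini-Hochberg adjustment, and every fold change is the log2 of 12 over 2 months on that scale, which understates changes of genes with low values. By this measure 1853 genes (11.3%) were higher and 1874 (11.4%) were lower at 12 months. Among them 527 rose and 426 fell at least 2-fold. The values of the 2 ages did not overlap for 4072 genes (24.8%), and the median log2 fold change of all tested genes was -0.01. With 1 library left out in turn, 1048 of the higher and 978 of the lower genes were called in all 8 fits. The number of lower genes was 1246 without 2-month replicate 2, 1220 without 2-month replicate 3 and 1145 without 2-month replicate 4. Where a list of genes is counted below, its share is to be read against 11.3% and 11.4%, and its median against -0.01. Where leaving out 1 library, or for counts of 5 or more another setting, moved a list's count by over 1.5 times, the count obtained that way is given beside it.

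**Figure D1:**
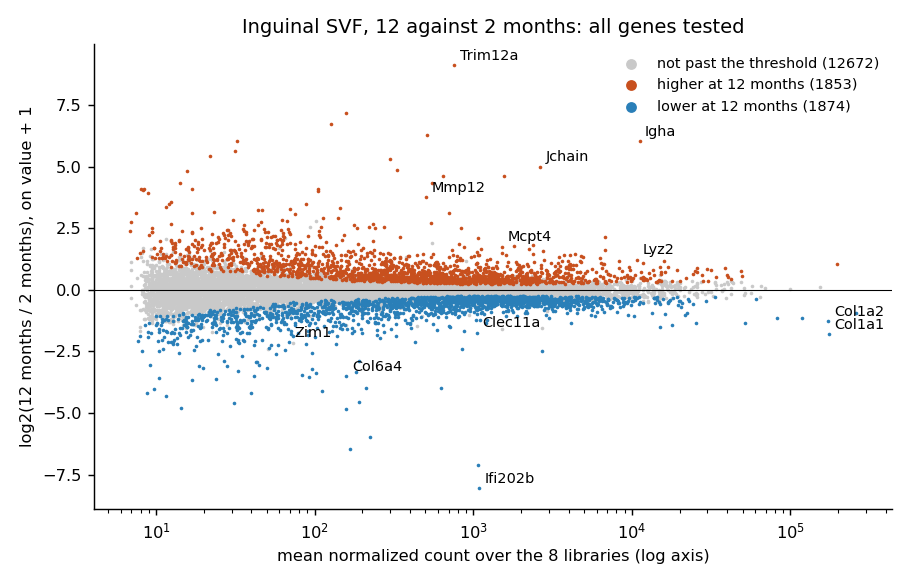
Each point is 1 of 16399 tested genes, with the mean normalized count over the 8 control libraries on a log axis against the log2 fold change of 12 over 2 months. The 1853 higher genes (orange) and 1874 lower genes (blue) lie on both sides of 0, with Trim12a (9.11) and Ifi202b (-8.03) farthest out among the labelled genes.

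Protein-coding genes were higher in 1638 and lower in 1724 of 14201 tested. Long intergenic RNAs had 18 higher and 30 lower of 372, and antisense RNAs 20 higher and 13 lower of 347. Of 141 immunoglobulin gene segments 97 were higher, and their median log2 fold change was 1.51.

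The plot of list members by log2 fold change gives the spread within 26 of the gene lists described below. Among the lists drawn, those of the mitochondrial genome, Schwann cells, fibrillar collagens and imprinted growth genes had the lowest medians.

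**Figure D2:**
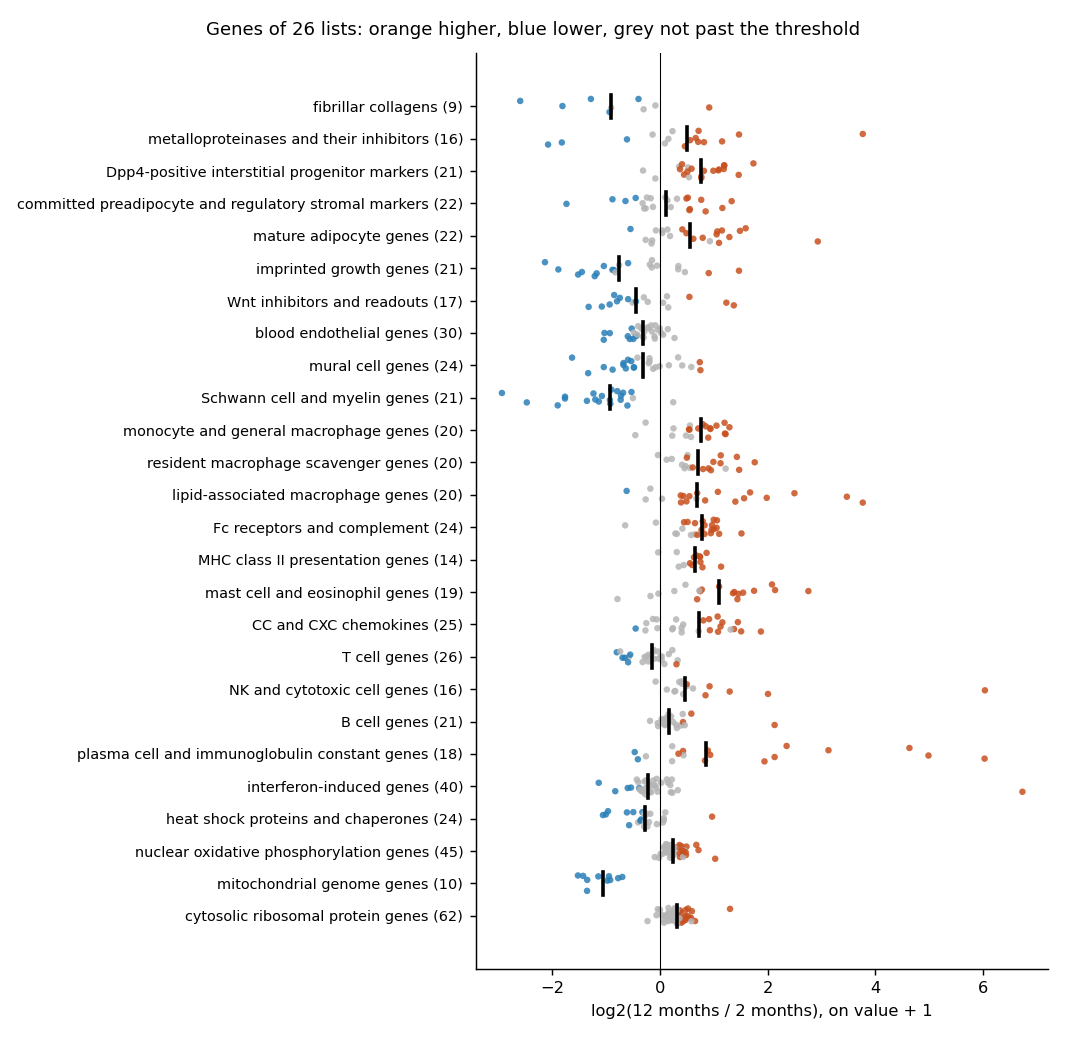
Each point is a tested gene of the list named at the left (number tested in brackets), placed by its log2 fold change of 12 over 2 months, and the black bar is the list's median. Orange points were higher and blue points lower by limma, and list medians ran from -1.06 (mitochondrial genome genes) to 1.10 (mast cell and eosinophil genes).

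Several collagens of the fibrous matrix, among them both chains of type I and type III collagen, fell with age. Fibrillar collagens form the rope-like fibres of connective tissue. Of 9 tested, 5 were lower and 1 was higher, with a median of -0.91, and 4 of the lower genes were called in all 8 leave-one-out fits. Col3a1, which encodes type III collagen, had 293471, 349190, 354953 and 364729 at 2 months and 167426, 218084, 179696 and 150662 at 12 months, a log2 fold change of -0.94 ± 0.13 (SE, limma adjusted p = 0.000575). The lowest 2-month library stood above the highest 12-month library. Col11a1, a minor collagen that helps to set fibre diameter, had 99, 82, 125 and 90 at 2 months and 19, 16, 14 and 13 at 12 months, a change of -2.60 ± 0.22 (SE, limma adjusted p = 1.55e-05). It showed the largest fall of the list, and Col5a1 fell by 0.40. Col5a3, a chain of type V collagen, went the other way, with 9236, 10312, 10723 and 10832 at 2 months and 19794, 26491, 17451 and 15237 at 12 months and a change of 0.91.

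Both chains of type I collagen, the main fibre of the depot's matrix, fell. Col1a2 had 224346, 251080, 250424 and 257697 at 2 months and 100955, 109261, 100006 and 94096 at 12 months, a change of -1.28 ± 0.10 (SE, limma adjusted p = 1.1e-05). Within an age its 4 libraries lay close together, and the ages were far apart. Col1a1 changed by -1.81. Sparc, which encodes osteonectin, a protein that binds collagen as it leaves the cell, had 107023, 108625, 115592 and 117445 at 2 months and 43961, 71041, 49413 and 44411 at 12 months, a change of -1.13 ± 0.15 (SE, limma adjusted p = 0.000331). Among 29 genes of collagen processing and crosslinking, 4 were higher and 2 were lower (median 0.01). The lower genes were Sparc and P4ha1, a proline hydroxylase subunit, and there were 1 lower leaving out 12-month library 4 or 2-month library 2, 3 or 4 and 4 lower leaving out 2-month library 1. Pcolce2, an enhancer of procollagen trimming, had 1585, 2081, 2200 and 1672 at 2 months and 3246, 3713, 3291 and 3755 at 12 months, a change of 0.90. The crosslinking oxidases Loxl1 (0.60), Lox (0.49) and Loxl3 (0.49) also rose, while P4hb and the collagen chaperone Serpinh1, the most abundant members that did not pass, had adjusted p of 0.625 and 0.0727 from limma.

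The DNA just upstream of matrix genes that moved in opposite directions, with that of a mast cell protease gene, is shown so that their core promoter letters can be compared. The 250 bases before the annotated start are given in RefSeq's GRCm38.p6 sequence, 5′ to 3′ on the strand of the gene, for Col1a2 (chr6:4505368-4505617, plus strand), Col3a1 (chr1:45311288-45311537, plus strand), Mmp3 (chr9:7445572-7445821, plus strand) and Mcpt4 (chr14:56062311-56062560, minus strand). Capitals mark matches on either strand to TATAAA (the TATA box), CCAAT (the CAAT box), CACGTG (an E-box), TGACTCA (an AP-1 site, read TGAGTCA on the other strand) and GGGCGG (a GC box).
Col1a2: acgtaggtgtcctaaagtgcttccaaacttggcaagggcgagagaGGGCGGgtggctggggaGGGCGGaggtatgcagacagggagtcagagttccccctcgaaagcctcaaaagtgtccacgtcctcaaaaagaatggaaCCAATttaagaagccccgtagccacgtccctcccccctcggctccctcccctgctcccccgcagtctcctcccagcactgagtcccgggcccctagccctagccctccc
Col3a1: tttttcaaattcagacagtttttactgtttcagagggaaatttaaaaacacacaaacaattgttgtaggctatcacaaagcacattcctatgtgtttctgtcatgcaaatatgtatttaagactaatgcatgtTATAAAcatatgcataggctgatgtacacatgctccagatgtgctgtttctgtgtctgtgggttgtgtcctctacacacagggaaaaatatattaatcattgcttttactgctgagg
Mmp3: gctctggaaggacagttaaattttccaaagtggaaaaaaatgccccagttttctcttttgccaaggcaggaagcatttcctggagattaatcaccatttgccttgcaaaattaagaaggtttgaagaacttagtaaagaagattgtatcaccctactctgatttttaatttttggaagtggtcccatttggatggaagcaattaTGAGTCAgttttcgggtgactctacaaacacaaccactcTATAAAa
Mcpt4: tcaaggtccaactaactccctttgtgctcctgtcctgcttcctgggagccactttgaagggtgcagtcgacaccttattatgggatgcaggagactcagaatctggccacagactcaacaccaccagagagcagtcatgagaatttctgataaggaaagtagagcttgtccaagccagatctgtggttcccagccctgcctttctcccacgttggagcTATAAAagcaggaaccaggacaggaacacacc
The window of Col1a2, which fell, held 2 GC boxes starting 205 and 188 bases before the start and CCAAT starting 109 bases before it. Col3a1, which also fell, held TATAAA starting 117 bases before its start. Mmp3, which rose, held TATAAA starting 7 bases before its start and an AP-1 site 46 bases before it, and Mcpt4, which rose, held TATAAA starting 32 bases before its start. For Col1a1 no such window was among the promoters available here.

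The same letters were counted over windows of the 250 bases before the start. RefSeq's table held these for 1302 of the 1853 higher genes, 1357 of the 1874 lower genes and 11661 of all 16399 tested. TATAAA was found in 11.37% of windows of higher genes, 8.77% of lower genes and 8.44% of all tested genes. For TGACTCA the shares were 6.45%, 3.83% and 4.29%, and for GGGCGG they were 51.38%, 67.8% and 60.82%. CCAAT was found in 36.79%, 40.75% and 39.8%, and CACGTG in 8.37%, 8.84% and 9.37%. These shares are descriptions with no test.

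**Figure D3:**
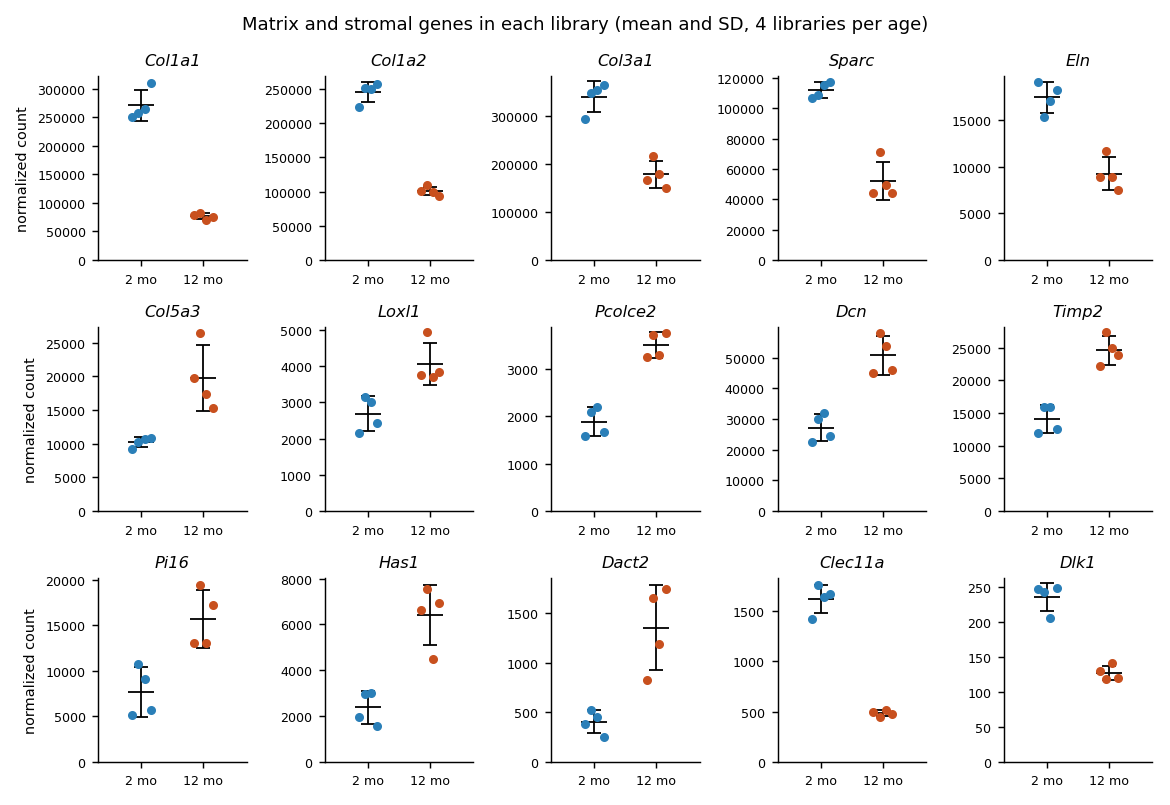
Normalized counts of 15 matrix and stromal genes in each library, 2 months in blue and 12 months in orange, with the mean and SD of 4 libraries and each axis starting at 0. Col1a1, Col1a2, Col3a1, Sparc, Eln, Clec11a and Dlk1 were lower at 12 months and the other 8 genes higher, with no overlap of the ages in any panel.

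Sheets of basement membrane and beaded collagen VI filaments surround fat cells and vessels. Of 24 such genes 7 were lower and 4 were higher (median -0.02), and there were 2 higher leaving out 12-month library 1, 2 or 3 or 2-month library 1 or 4. Col6a4 fell from 298, 339, 233 and 300 at 2 months to 29, 20, 25 and 26 at 12 months, and the collagen VI chains Col6a5 (-1.22) and Col6a6 (-1.10) fell with it. Col4a5, a minor chain of type IV collagen, had 987, 1379, 1715 and 1604 at 2 months and 659, 616, 808 and 719 at 12 months. Lama5, a laminin chain, changed by -0.85 and Col18a1 by -0.76. The main type IV chains Col4a1 (46201, 43553, 46635 and 60267 at 2 months and 54783, 65961, 49141 and 39013 at 12 months) and Col4a2 did not pass, with adjusted p of 0.766 and 0.76 from limma, and their ages overlapped. The higher genes were Col4a3, Col4a4, Lama2 and Lamb1.

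Elastic fibres let tissue recoil. Eln, the gene of elastin itself, had 19116, 15342, 17021 and 18180 at 2 months and 8939, 11659, 8869 and 7475 at 12 months, a change of -0.93 ± 0.13 (SE, limma adjusted p = 0.000563). Most other elastic fibre genes that moved went up, so that 6 were higher and 2 were lower of 17 (median 0.16), with 3 and 2 called in all leave-one-out fits. Emilin2 had 2103, 3604, 3399 and 2456 at 2 months and 5217, 6149, 5477 and 5904 at 12 months, a change of 1.01, and Mfap5, a microfibril protein gene, changed by 0.99. The microfibril backbone gene Fbn1 had an adjusted p of 0.887 from limma. Among 13 proteoglycan genes, Dcn (decorin, which coats collagen fibres) had 22499, 29858, 31826 and 24592 at 2 months and 44875, 58201, 53702 and 46055 at 12 months, a change of 0.90 ± 0.13 (SE, limma adjusted p = 0.000733). Prg4, a lubricating proteoglycan of joints, changed by 1.12 and Ecm2 by -0.54, and there were 2 lower leaving out 12-month library 1 or 2-month library 1. Bgn and Lum, close relatives of Dcn, had adjusted p of 0.823 and 0.574 from limma.

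Matrix metalloproteinases cut the matrix and Timp proteins restrain them. Of 16 tested 9 were higher and 3 were lower (median 0.51), with 5 and 3 called in all leave-one-out fits, and there were 5 higher without trend and robust estimation. Mmp3, a stromal stromelysin gene, had 1057, 1416, 1422 and 1196 at 2 months and 3963, 3855, 3187 and 3061 at 12 months, and Timp2 had 11857, 15952, 15869 and 12499 at 2 months and 22149, 27380, 24890 and 23934 at 12 months, changes of 1.47 and 0.82. Both rose in every 12-month library above every 2-month library. Mmp27, a less studied member of the family, fell, with 270, 438, 483 and 353 at 2 months and 86, 129, 133 and 85 at 12 months and a change of -1.82 ± 0.21 (SE, limma adjusted p = 0.000149). Mmp16 and Mmp15, which encode membrane-bound proteinases, were the other lower members.

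Markers of the Dpp4-positive interstitial progenitors, the least committed stromal cells of the depot, were mostly higher. Of 21 genes, 16 were higher and 0 lower in limma (1 lower at an unadjusted p under 0.05), with a median of 0.77. In all leave-one-out fits 9 were called higher, and there were 9 higher leaving out 2-month library 4, 10 higher without trend and robust estimation and 1 lower leaving out 12-month library 2. Pi16, a peptidase inhibitor gene used to mark these cells, had 5108, 10784, 9052 and 5732 at 2 months and 13074, 19454, 13049 and 17262 at 12 months, a change of 1.08 ± 0.22 (SE, limma adjusted p = 0.00534). The lowest 12-month library stood above the highest 2-month library. Has1, which makes hyaluronan, had 1947, 2973, 3021 and 1553 at 2 months and 6615, 7543, 4511 and 6945 at 12 months (1.46), and Dact2, a modulator of Wnt signalling, had 378, 524, 457 and 253 at 2 months and 825, 1651, 1191 and 1746 at 12 months, a change of 1.73 ± 0.25 (SE, limma adjusted p = 0.000769). Pi16 is named beyond the 4 members with the smallest p and was chosen after its values were seen. Anxa3 changed by 0.99, and Ly6c1 and Tek, which blood vessels also express, had adjusted p of 0.0526 and 0.632 from limma.

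Committed preadipocyte and regulatory stromal markers moved both ways, with 8 higher and 4 lower of 22 and a median of 0.12. Clec11a, the gene of a secreted growth factor of stromal cells, had 1417, 1756, 1637 and 1663 at 2 months and 500, 447, 516 and 474 at 12 months, a change of -1.74 ± 0.09 (SE, limma adjusted p = 3.44e-07). Dlk1, the preadipocyte factor that holds back differentiation, had 247, 243, 206 and 248 at 2 months and 130, 119, 141 and 120 at 12 months, a change of -0.88 ± 0.12 (SE, limma adjusted p = 0.000552), and its 2 ages did not overlap. Apod, a lipid carrier gene, and Cxcl14, a chemokine gene of stroma, rose by 1.33 and 1.16 (log2). Fabp4 and Cd36, which bind and import fatty acids, had adjusted p of 0.599 and 0.193 from limma.

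Transcription factors that steer adipocyte differentiation were mostly not past the threshold, with 3 higher, 6 lower and 18 not past it of 27 (median -0.15), and there were 2 or 3 lower leaving out 2-month library 2, 3 or 4 and 3 lower without trend and robust estimation. Cebpa, a driver of late adipogenesis, had 1141, 964, 1096 and 1220 at 2 months and 1691, 2026, 1564 and 1665 at 12 months, a change of 0.65 ± 0.10 (SE, limma adjusted p = 0.00113). Twist2 changed by 0.77, Nr1h3 (the liver X receptor alpha) by 0.42 and Klf5 by -0.73. Thermogenic and beige genes were higher in 3, lower in 4 and not past the threshold in 18 of 25 (median -0.07). Ucp1, the uncoupling protein that marks heat-producing adipocytes, had only 28, 11, 19 and 15 at 2 months and 15, 13, 8 and 6 at 12 months, an adjusted p of 0.171 from limma. Kcnk3, a potassium channel gene of beige fat, had 372, 319, 307 and 374 at 2 months and 166, 186, 160 and 115 at 12 months, a change of -1.14 ± 0.15 (SE, limma adjusted p = 0.000403). Atp2a2, a calcium pump, and Ryr2, a calcium release channel, fell by 0.44 and 2.21, and Fgf21 was the other lower gene. Lhx8, a brown fat marker, had 21, 25, 26 and 28 at 2 months and 60, 82, 51 and 53 at 12 months (1.25), and Adrb3, the beta-3 adrenergic receptor, and Tbx15 were the other higher genes.

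Genes of mature adipocytes, which the SVF should largely lack, were present at low levels for the adipocyte hormones and were higher at 12 months in 12 of 22, with 1 lower (median 0.56, 9 called higher in all leave-one-out fits, 0 lower leaving out 12-month library 1 or 4 or 2-month library 1, 2, 3 or 4). Adipoq, the adiponectin gene, had 135, 150, 134 and 121 at 2 months and 444, 453, 328 and 311 at 12 months. Lep, the leptin gene, changed by 2.93, Cidec, a lipid droplet protein gene, by 1.29 and Pck1, of glyceroneogenesis, by 1.06. Lep is named beyond the members with the smallest p and was chosen after its values were seen. The summed level of the list was 145064, 126551, 132364 and 151474 at 2 months and 128841, 193878, 139758 and 137353 at 12 months, with 12-month replicate 2 highest and the ages overlapping. Adipoq was a small part of this sum. The list shares Fabp4, Lpl and Cd36 with the preadipocyte list, so the sum does not measure adipocytes alone. Slc2a4, the insulin-responsive glucose transporter, was the lower gene.

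Few enzymes of lipid synthesis passed the threshold. Of 23 fatty acid and triglyceride synthesis genes 3 were lower and 1 was higher (median 0.04), with 1 lower leaving out 2-month library 2, 3 or 4. Scd1, a desaturase, had 5244, 7009, 5031 and 5741 at 2 months and 9091, 8409, 8468 and 9138 at 12 months (0.62), while Acacb (-0.58), Fasn (-0.41) and Elovl5 (-0.29) were lower. Among 24 cholesterol genes 6 were lower and 1 was higher (median -0.10), with 0 higher leaving out 12-month library 1, 2, 3 or 4 or 2-month library 2, 3 or 4. Idi1, an isomerase of the pathway, had 319, 324, 370 and 294 at 2 months and 237, 259, 220 and 183 at 12 months, a change of -0.54 ± 0.13 (SE, limma adjusted p = 0.0114), and Insig1, which holds the pathway's activators in the endoplasmic reticulum, changed by -0.45. Hmgcs1 and Srebf2 had adjusted p of 0.356 and 0.992 from limma.

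Hox genes record the position of a tissue along the body axis. There were 5 higher and 4 lower of 27 (median -0.03, 3 higher leaving out 2-month library 2). The 5 higher genes were all of the Hoxc cluster (Hoxc4, Hoxc6, Hoxc8, Hoxc9 and Hoxc11), and Hoxc9 had 61, 82, 85 and 70 at 2 months and 138, 158, 106 and 123 at 12 months, a change of 0.81 ± 0.17 (SE, limma adjusted p = 0.00698). The lower genes were Hoxb3, Hoxb8, Hoxb9 and Hoxd4. Hoxd4 had 20, 21, 19 and 34 at 2 months and 10, 10, 7 and 4 at 12 months (-1.52). Hoxb4 and Hoxd8 had adjusted p of 0.501 and 0.255 from limma.

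Imprinted genes are expressed from 1 parental copy and many promote growth early in life. Of 21 tested 10 were lower and 2 were higher, with a median of -0.76, and all 10 lower genes were called in every leave-one-out fit. Peg3, a zinc finger gene, had 902, 1003, 1198 and 1133 at 2 months and 423, 421, 296 and 342 at 12 months, a change of -1.52 ± 0.13 (SE, limma adjusted p = 2.16e-05), and its neighbour in the same imprinted domain, Zim1, had 73, 85, 165 and 134 at 2 months and 26, 26, 20 and 24 at 12 months (-2.14). In the Dlk1 domain the noncoding RNAs Rian (881, 1179, 1123 and 965 at 2 months and 381, 376, 335 and 418 at 12 months), Mirg (-1.89) and Meg3 (-1.21) fell with Dlk1. The change of Rian was -1.45 ± 0.11 (SE, limma adjusted p = 8.52e-06). No lower gene named here had overlapping ages. Further lower genes were H19, Mest, Plagl1 and Peg10. Nnat, a neuronal imprinted gene, changed by 1.47, and Dcn was the other higher gene. Gnas and Igf2r had adjusted p of 0.244 and 0.275 from limma.

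Of 20 genes of the insulin-like growth factor (IGF) axis 7 were lower and 2 were higher (median -0.19, 1 higher leaving out 2-month library 2, 4 higher leaving out 12-month library 4, 3 or 4 lower leaving out 12-month library 4 or 2-month library 3 or 4 and 3 lower without trend and robust estimation). Stc1, which encodes stanniocalcin-1, a blocker of the proteinase that frees IGF from its binding proteins, had 756, 726, 931 and 765 at 2 months and 172, 518, 347 and 255 at 12 months, a change of -1.40 ± 0.26 (SE, limma adjusted p = 0.00281). Igf2bp3, an RNA-binding protein of fetal tissue, changed by -1.56 and the insulin receptor substrate Irs2 by -0.48. Igfbp6, which binds IGF-2, had 5748, 7051, 7114 and 6092 at 2 months and 12081, 15630, 9815 and 12908 at 12 months, a change of 0.94 ± 0.14 (SE, limma adjusted p = 0.000631), and Igfbp4 was the other higher gene. The most abundant binding protein gene of the list, Igfbp5, had an adjusted p of 0.392 from limma.

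Readouts and inhibitors of Wnt signalling, which restrains adipogenesis, were lower in 8 and higher in 3 of 17 (median -0.45, 1 higher leaving out 12-month library 2 or 2-month library 2 or 4, 5 lower leaving out 2-month library 2, 3 or 4 and 5 lower with no filter on low values). The direct Wnt targets Axin2 and Nkd1, both feedback inhibitors, had 663, 749, 735 and 736 at 2 months and 493, 290, 457 and 519 at 12 months for Axin2 (-0.74) and 372, 387, 427 and 355 at 2 months and 233, 214, 260 and 158 at 12 months for Nkd1 (-0.85). Sfrp2, a secreted inhibitor, changed by -0.93. Ccn5, a matricellular protein gene of mesenchymal stem cells, had 194, 219, 244 and 214 at 2 months and 670, 670, 485 and 461 at 12 months, a change of 1.37 ± 0.14 (SE, limma adjusted p = 8e-05), with Lgr5 and Nkd2 also higher. Lef1 and Tcf7, also lower, are transcription factors of the pathway that T cells express too. Sfrp1 and Sfrp4 had adjusted p of 0.519 and 0.551 from limma.

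Of 31 genes of transforming growth factor beta (TGF-beta) and bone morphogenetic protein (BMP) signalling 8 were lower and 3 were higher (median -0.10, 4 lower leaving out 12-month library 1 or 2-month library 3 or 4 and 4 lower without trend and robust estimation). The ligand gene Tgfb3 had 1059, 1413, 1447 and 1370 at 2 months and 764, 803, 818 and 694 at 12 months, a change of -0.77 ± 0.11 (SE, limma adjusted p = 0.000556). Smad7, an inhibitor induced by the pathway, had 4270, 5351, 5318 and 5610 at 2 months and 2970, 2201, 2545 and 3127 at 12 months (-0.93). Both genes fell without overlap of the ages. Tgfbi, a matrix protein induced by TGF-beta, went up, with 2159, 2630, 3095 and 2780 at 2 months and 4871, 5947, 5538 and 5055 at 12 months and a change of 1.01 ± 0.11 (SE, limma adjusted p = 0.000145), and Bmp2 and Bmp3 were the other higher genes. Tgfbr2 and Fstl1 had adjusted p of 0.53 and 0.209 from limma.

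Growth factors of vessels and fibroblasts were higher in 5 and lower in 4 of 22 (median -0.01, 3 higher leaving out 12-month library 1 or 2 or 2-month library 1, 2 or 4, 3 higher without trend and robust estimation and 2 lower leaving out 12-month library 1 or 4 or 2-month library 2, 3 or 4). Vegfd, a ligand for lymphatic vessels, had 168, 257, 261 and 183 at 2 months and 440, 469, 537 and 428 at 12 months, a change of 1.13 ± 0.15 (SE, limma adjusted p = 0.000477). Angptl2 changed by 0.66, and Fgf2, Fgf9 and Vegfb were the other higher genes. Fgf1 had 353, 358, 410 and 382 at 2 months and 198, 229, 262 and 202 at 12 months, a change of -0.76 ± 0.12 (SE, limma adjusted p = 0.00105), and Hbegf changed by -0.60, with Fgf10 and Angptl4 also lower. Vegfa, the main driver of blood vessel growth, had an adjusted p of 0.0778 from limma.

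Blood endothelial genes were lower in 8 and higher in 0 of 30 in limma (0 higher at an unadjusted p under 0.05), with a median of -0.31, and there were 4 or 5 lower leaving out 12-month library 1 or 4 or 2-month library 1 or 4, 13 lower leaving out 12-month library 2, 4 lower without trend and robust estimation and 13 lower with a weight per library. The members with the smallest p included adhesion and clotting genes. Vwf, the gene of von Willebrand factor, had 7580, 6097, 6349 and 9669 at 2 months and 3312, 4050, 4658 and 2601 at 12 months, a change of -1.03 ± 0.18 (SE, limma adjusted p = 0.00224). Selp and Sele, the selectins that catch leukocytes at the vessel wall, had 2632, 2613, 2197 and 2668 at 2 months and 1243, 1432, 1686 and 742 at 12 months for Selp (-1.04) and 853, 1012, 773 and 880 at 2 months and 516, 408, 672 and 312 at 12 months for Sele (-0.93). All 3 ranges were apart. Pecam1, a marker of all endothelial cells, had 16270, 15333, 15153 and 18865 at 2 months and 11440, 16190, 15431 and 10301 at 12 months and an adjusted p of 0.136 from limma, and Aqp1 one of 0.988. The summed level of the list was 202504, 170432, 172973 and 232599 at 2 months and 140386, 208631, 175274 and 130376 at 12 months, in which the ages overlapped.

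Lymphatic endothelial genes moved both ways, with 3 higher and 2 lower of 13 (median -0.07, 1 lower leaving out 12-month library 2 or 4 or 2-month library 3). Prox1, the master regulator of lymphatic identity, had 185, 198, 208 and 171 at 2 months and 88, 80, 117 and 105 at 12 months, a change of -0.97 ± 0.15 (SE, limma adjusted p = 0.00106). Pdpn, which stromal cells also express, had 196, 355, 360 and 219 at 2 months and 573, 543, 606 and 595 at 12 months (1.09), Maf changed by 0.69, Thy1 by 0.31 and Fgl2 by -0.39. Lyve1 and Flt4 had adjusted p of 0.128 and 0.661 from limma.

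Mural cells wrap vessels and contract. Of 24 mural genes 11 were lower and 2 were higher (median -0.31, 7 lower in all leave-one-out fits, 1 higher leaving out 2-month library 2 or 4, 4 higher leaving out 12-month library 4 and 7 lower leaving out 2-month library 4). Myh11, the smooth muscle myosin gene, had 14242, 12356, 13703 and 14963 at 2 months and 6855, 5984, 9226 and 5285 at 12 months, a change of -1.04 ± 0.15 (SE, limma adjusted p = 0.000628). Acta2, which encodes smooth muscle actin, had 9132, 7908, 8499 and 8846 at 2 months and 4410, 4996, 5924 and 3630 at 12 months (-0.88), and Cnn1, calponin, had 406, 410, 408 and 283 at 2 months and 112, 96, 122 and 155 at 12 months (-1.63). No 12-month library reached the lowest 2-month library for these 3 genes. Tagln changed by -0.59. The higher members were Rgs5 (0.74) and Higd1b (0.75), both markers of pericytes, and neither was called in all leave-one-out fits. Abcc9, Kcnj8 and Cspg4, pericyte markers of the same list, were not higher. Pdgfrb, a receptor gene of mural cells and progenitors, had 2536, 2367, 2349 and 2407 at 2 months and 3000, 4380, 3258 and 2399 at 12 months and an adjusted p of 0.068 from limma. Des and Itga7 had adjusted p of 0.262 and 0.0702 from limma. The study's Cre is driven by the promoter of Acta2, and whether Cre activity differed between the sequenced ages was not tested.

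Schwann cells sheathe the nerves of the depot. Their genes were lower in 19 of 21 and higher in 0 in limma (0 higher at an unadjusted p under 0.05), with a median of -0.93, and 16 were lower in all leave-one-out fits. Pllp, which encodes a membrane protein of myelin, had 135, 96, 125 and 133 at 2 months and 36, 37, 33 and 34 at 12 months, a change of -1.76 ± 0.17 (SE, limma adjusted p = 5.17e-05). Mal, the gene of another myelin membrane protein, had 334, 280, 276 and 333 at 2 months and 83, 116, 100 and 65 at 12 months, a change of -1.76 ± 0.17 (SE, limma adjusted p = 5.57e-05). Both genes fell without overlap of the ages. Sox10, the transcription factor that marks all Schwann cells, was also lower (-1.08) and was chosen after its values were seen. Gfra3 and Scn7a, which mark non-myelinating Schwann cells, did not pass, with adjusted p of 0.0895 and 0.199 from limma. The summed level of the list was 19340, 16702, 18603 and 19630 at 2 months and 8836, 9810, 10463 and 8660 at 12 months, so no 12-month library reached the lowest 2-month library.

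**Figure D4:**
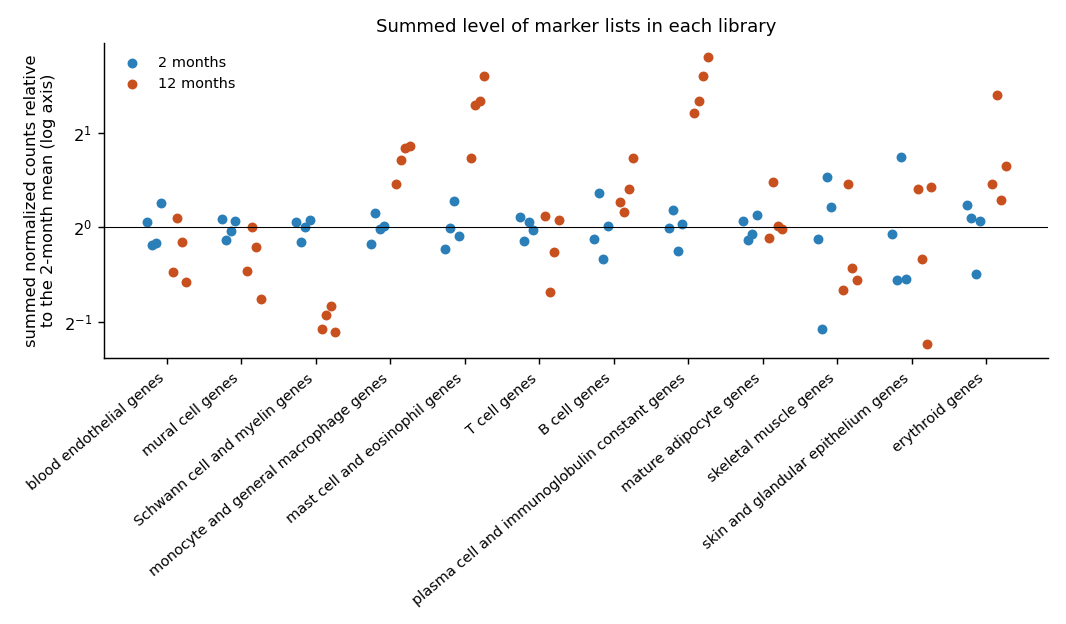
Summed normalized counts of 12 marker lists in each library, divided by the mean of the 4 libraries of 2 months (log axis), with 2 months in blue and 12 months in orange. The ages did not overlap for the Schwann, macrophage, mast cell, plasma cell and erythroid lists, and overlapped for the other 7.

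Macrophage genes rose in 3 separate lists. General monocyte and macrophage genes were higher in 13 of 20 (median 0.75, all 13 in every leave-one-out fit, 1 lower leaving out 12-month library 3). Tyrobp, the adaptor of activating receptors on myeloid cells, had 471, 529, 440 and 454 at 2 months and 791, 1245, 1105 and 1274 at 12 months, a change of 1.20 ± 0.14 (SE, limma adjusted p = 0.000171), and the lipopolysaccharide co-receptor gene Cd14 had 755, 838, 802 and 631 at 2 months and 1467, 1777, 1281 and 1280 at 12 months (0.93). Their 12-month libraries all stood above the 2-month libraries. Cybb and Laptm5 had adjusted p of 0.0825 and 0.156 from limma. Resident macrophage scavenger genes were higher in 11 of 20 and lower in 0 in limma, or 0 at an unadjusted p under 0.05 (median 0.70). Cd209d, a C-type lectin gene, had 178, 272, 318 and 259 at 2 months and 574, 832, 632 and 786 at 12 months, a change of 1.47 ± 0.17 (SE, limma adjusted p = 0.00019), and Clec10a changed by 1.13, while Stab1 and Gas6 had adjusted p of 0.859 and 0.373 from limma.

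Lipid-associated macrophages gather around dying adipocytes. Their genes were higher in 15 of 20 and lower in 1 (median 0.68, 12 higher in all leave-one-out fits, 0 lower leaving out 2-month library 4). Atp6v0d2, a proton pump subunit of multinucleate and foamy macrophages, had 11, 17, 12 and 10 at 2 months and 60, 251, 175 and 171 at 12 months, a change of 3.47 ± 0.37 (SE, limma adjusted p = 9.55e-05). Lgals3, galectin-3, had 1055, 1050, 958 and 1088 at 2 months and 2055, 5063, 3287 and 3496 at 12 months, a change of 1.67 ± 0.20 (SE, limma adjusted p = 0.00021). Within the 12-month group replicate 1 was lowest and replicate 2 highest for both genes, and every 12-month library was above every 2-month library. Trem2, the lipid receptor that defines these cells, changed by 2.50 and was chosen after its values were seen. Cd9 had an adjusted p of 0.823 from limma, and Fabp5 was the lower gene. Lysosomal genes, many of them shared with these macrophages, were higher in 20 of 36 and lower in 1 (median 0.30), and Ctse was the lower gene.

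Resident macrophages recycle iron. Of 19 iron and heme genes 10 were higher and 2 were lower (median 0.43, 1 lower leaving out 2-month library 2, 3 or 4). Fth1, the ferritin heavy chain, had 19607, 18311, 18729 and 19836 at 2 months and 29089, 33552, 25142 and 30603 at 12 months, a change of 0.62 ± 0.10 (SE, limma adjusted p = 0.00157). Tfrc, the transferrin receptor that imports iron, fell, with 3052, 4100, 3643 and 3316 at 2 months and 2300, 1864, 1921 and 2438 at 12 months and a change of -0.73 ± 0.12 (SE, limma adjusted p = 0.00125). Blvrb, a biliverdin reductase, changed by 0.82, and Ncoa4, the receptor that delivers ferritin for breakdown, was the other lower gene. Hmox1 and Steap4 had adjusted p of 0.0614 and 0.0814 from limma. Ferritin genes have many near-identical pseudogene copies, and how reads were shared among them is not given in the sources used here.

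Receptors for antibodies and the complement cascade were higher in 17 of 24 and lower in 0 in limma (1 lower at an unadjusted p under 0.05), with a median of 0.78 and 15 called in all leave-one-out fits. C1qc, a chain of the C1q recognition protein made by macrophages, had 1350, 1856, 1885 and 2064 at 2 months and 3024, 3868, 3296 and 4053 at 12 months, a change of 1.00 ± 0.14 (SE, limma adjusted p = 0.000457). C1s1, the serine protease that C1q activates, had 6277, 7678, 8153 and 6600 at 2 months and 11625, 13357, 12962 and 11631 at 12 months (0.79), and Cfp, properdin, had 879, 1237, 1149 and 1121 at 2 months and 1810, 2099, 2063 and 2616 at 12 months (0.97). The receptor chain Fcer1g changed by 1.00. Fcgr3 had an adjusted p of 0.0631 from limma.

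Antigen is shown to T cells by a pair of molecule classes. Genes of major histocompatibility complex (MHC) class II, used by macrophages, dendritic cells and B cells, were higher in 10 of 14 (median 0.65, 8 in all leave-one-out fits). H2-Aa had 18125, 20345, 14784 and 19562 at 2 months and 26965, 32013, 33413 and 40743 at 12 months, a change of 0.87 ± 0.14 (SE, limma adjusted p = 0.00125), and H2-DMa, which loads peptide, changed by 0.79. H2-Ob and H2-DMb2 had adjusted p of 0.899 and 0.192 from limma. Of 18 class I genes 2 were higher, Tapbp (0.26) and Pdia3 (0.34), with a median of 0.09 and 0 or 1 higher leaving out 12-month library 1, 3 or 4 or 2-month library 2, 3 or 4 and 4 higher leaving out 12-month library 2. The class I chains H2-K1 and H2-D1 had adjusted p of 0.393 and 0.344 from limma. The difference between the classes was not tested.

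Dendritic cell genes were higher in 4 and lower in 2 of 20 (median 0.33, 0 or 1 lower leaving out 12-month library 1 or 2 or 2-month library 2, 3 or 4). The higher genes, Cd209a (110, 172, 207 and 163 at 2 months and 300, 369, 447 and 478 at 12 months), Mgl2 (0.85), Sirpa (0.83) and Batf3 (0.89), include lectins and receptors that macrophages also express. The change of Cd209a was 1.30 ± 0.20 (SE, limma adjusted p = 0.000844). The lower genes were Irf4 and Zbtb46. Ccr7 and Fscn1, genes of migrating dendritic cells, had adjusted p of 0.0738 and 0.969 from limma. The neutrophil list had 1 higher gene of 13, Mmp9 (0.66), and there were 0 higher leaving out 12-month library 1, 3 or 4 or 2-month library 3, 2 higher leaving out 2-month library 2 and 1 lower leaving out 12-month library 3.

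Mast cells store proteases and histamine in granules. Their genes and those of eosinophils were higher in 13 of 19, with the highest median of the lists drawn, 1.10, 10 called in all leave-one-out fits and 1 lower leaving out 12-month library 1. Fcer1a, the chain of the IgE receptor that binds IgE, had 7, 11, 17 and 9 at 2 months and 47, 68, 90 and 118 at 12 months, a change of 2.75 ± 0.33 (SE, limma adjusted p = 0.000205). Tph1, which makes serotonin in mouse mast cells, had 14, 14, 25 and 19 at 2 months and 56, 94, 90 and 88 at 12 months, a change of 2.14 ± 0.26 (SE, limma adjusted p = 0.000206). Mcpt4, whose upstream letters are given above, had 627, 697, 872 and 557 at 2 months and 1581, 2329, 2291 and 3206 at 12 months (1.75). For all 3 genes every 12-month library stood above every 2-month library. Ear2, an eosinophil gene, and Hdc, which makes histamine, had adjusted p of 0.0514 and 0.0931 from limma. The summed level of the list was 2843, 3326, 4051 and 3124 at 2 months and 5532, 8191, 8415 and 10080 at 12 months.

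Chemokines draw leukocytes into tissue. Of 25 tested 11 were higher and 1 was lower (median 0.72, 11 higher in all leave-one-out fits, 0 lower leaving out 2-month library 4 and 2 lower leaving out 12-month library 3). Ccl11, eotaxin, the attractant of eosinophils, had 699, 908, 949 and 624 at 2 months and 2257, 2751, 2157 and 1837 at 12 months, a change of 1.51 ± 0.15 (SE, limma adjusted p = 5.57e-05). Ccl7 and Ccl8 changed by 1.87 and 1.45, Ccl2 by 1.38, and Cx3cl1 was the lower gene. The interferon-induced Cxcl10 and the stromal Cxcl12, which holds leukocyte and stem cell niches, had adjusted p of 0.755 and 0.449 from limma. Ccl2 was chosen after its values were seen.

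Cytokine genes were higher in 8 and lower in 2 of 27 (median 0.14, 5 higher leaving out 12-month library 4 or 2-month library 3 or 4). Il10, an anti-inflammatory cytokine of macrophages, had 46, 44, 36 and 21 at 2 months and 88, 112, 126 and 133 at 12 months, a change of 1.66 ± 0.25 (SE, limma adjusted p = 0.000846). Tnfsf13b, the survival factor of B cells and plasma cells called BAFF, had 88, 72, 108 and 106 at 2 months and 183, 205, 183 and 159 at 12 months (0.97). Il6 and Csf3, which drive acute responses and neutrophil output, were the 2 lower genes, Il6 with 2633, 3095, 2948 and 2077 at 2 months and 1724, 1724, 1633 and 1548 at 12 months (-0.68) and Csf3 with 290, 314, 215 and 201 at 2 months and 92, 115, 67 and 74 at 12 months (-1.55). Ltb and Kitl had adjusted p of 0.649 and 0.922 from limma.

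Type 2 immunity, which in fat supports beige adipocytes through eosinophils and group 2 innate lymphoid cells, had 3 higher and 1 lower of 18 genes (median 0.15, 0 lower leaving out 12-month library 2 or 3 or 2-month library 2, 3 or 4 and 3 lower leaving out 12-month library 4). The higher genes were Retnla, a product of alternatively activated macrophages, Ccl11 and Il1rl1, the receptor of interleukin-33. Retnla had 2476, 2927, 3780 and 4109 at 2 months and 8332, 14594, 6705 and 11558 at 12 months, a change of 1.60 ± 0.22 (SE, limma adjusted p = 0.000547), and Il1rl1, which mast cells express too, had 154, 151, 265 and 173 at 2 months and 280, 307, 428 and 456 at 12 months (0.99). Il33 had 252, 377, 338 and 209 at 2 months and 309, 358, 441 and 401 at 12 months, with an adjusted p of 0.142 from limma. Gata3, the transcription factor of these lymphoid cells and of T helper 2 cells, was the lower gene (-0.45). Il5, Il4 and Il9 were among 6 listed genes below the filter.

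Prostaglandins and leukotrienes are lipid mediators of vessels, macrophages and mast cells. Of 21 genes 9 were higher and 2 were lower (median 0.41, 8 higher in all leave-one-out fits, 1 lower leaving out 12-month library 1, 2 or 4 or 2-month library 1 or 4). Alox5ap, which hands arachidonic acid to the leukotriene pathway, had 340, 384, 380 and 383 at 2 months and 655, 871, 846 and 859 at 12 months, a change of 1.11 ± 0.11 (SE, limma adjusted p = 5.07e-05). Ptgis, prostacyclin synthase, had 143, 269, 241 and 171 at 2 months and 439, 568, 423 and 521 at 12 months (1.27), Ptges changed by 0.84 and Hpgd, which degrades prostaglandins, by 1.11. The lower genes were Alox12 and Ptger4.

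T cell genes were lower in 5 and higher in 1 of 26 (median -0.14), with 1 called lower in all leave-one-out fits and 0 higher leaving out 12-month library 1 or 4 or 2-month library 2, 3 or 4, 3 higher leaving out 12-month library 2, 1 or 2 lower leaving out 2-month library 1, 2, 3 or 4, 1 lower without trend and robust estimation, 1 lower with no filter on low values and 3 lower after quantile normalization. Cd4, the co-receptor of helper T cells, had 2005, 2076, 2174 and 2109 at 2 months and 1508, 743, 1348 and 1364 at 12 months, a change of -0.80 ± 0.18 (SE, limma adjusted p = 0.00805), and 12-month replicate 2 was lowest. Bcl11b, Cd5, Cd6 and Tcf7 were the other lower genes, and Thy1, which stromal cells express too, was the higher gene. The summed level of the list was 58564, 48856, 56240 and 52978 at 2 months and 58646, 33821, 45106 and 56964 at 12 months, in which the ages overlapped. B cell genes were higher in 3 of 21 (median 0.16), the immunoglobulin genes Igkc (2.13) and Ighm (0.43) and the complement receptor Cr2 (0.58), with 1 higher leaving out 12-month library 3 or 4 or 2-month library 1, 3 or 4 and 5 to 7 higher leaving out 12-month library 2 or 2-month library 2.

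Plasma cells secrete antibody. Of 18 genes 12 were higher and 2 were lower (median 0.86, 6 higher in all leave-one-out fits, 6 or 7 higher leaving out 12-month library 4 or 2-month library 3 or 4 and 0 or 1 lower leaving out 12-month library 1, 2 or 4 or 2-month library 1, 2, 3 or 4). Igkc, the kappa light chain shared by B and plasma cells, had 2967, 2841, 1666 and 2694 at 2 months and 8758, 9838, 10693 and 15021 at 12 months, a change of 2.13 ± 0.19 (SE, limma adjusted p = 3.21e-05). Jchain had 267, 216, 108 and 94 at 2 months and 3669, 4023, 6176 and 6640 at 12 months. Every 12-month library stood well above every 2-month library for both genes. The general plasma cell and secretory genes Sdc1 and Xbp1 had adjusted p of 0.0634 and 0.0801 from limma, and Irf4 and Prdm1, transcription factors that other lymphoid and myeloid cells share, were the lower genes. The summed level of the list was 22162, 25290, 18649 and 22862 at 2 months and 51192, 56215, 67492 and 77348 at 12 months. Constant genes of the heavy chain locus are similar in sequence, and how reads were shared among them is not given in the sources used here.

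The inguinal depot holds a lymph node, and the labels do not say whether it was removed. Of 12 genes of lymph node stroma and germinal centres 2 were higher and 2 were lower (median 0.17, 0 or 1 higher leaving out 12-month library 3 or 4 or 2-month library 1, 3 or 4). Glycam1 and Madcam1, ligands on the high endothelial venules by which lymphocytes enter nodes, had 121, 189, 149 and 95 at 2 months and 47, 32, 34 and 61 at 12 months for Glycam1 (-1.65) and 58, 37, 73 and 60 at 2 months and 16, 9, 10 and 18 at 12 months for Madcam1 (-2.04). Both fell without overlap. Gcsam and Cr2, of germinal centres and their follicles, rose by 1.13 and 0.58. Bcl6 and Mki67 had adjusted p of 0.291 and 0.303 from limma. The part of lymph node tissue in the lymphocyte values was not tested.

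Interferon-induced genes were lower in 5 and higher in 1 of 40 (median -0.21, 2 higher leaving out 12-month library 2 or 2-month library 1, 3 lower leaving out 2-month library 2, 15 lower leaving out 12-month library 3 and 3 lower without trend and robust estimation). Ifi44 had 208, 170, 174 and 206 at 2 months and 83, 63, 126 and 80 at 12 months, a change of -1.14 ± 0.20 (SE, limma adjusted p = 0.00189), and Mx2, an antiviral GTPase, had 887, 905, 784 and 604 at 2 months and 425, 447, 533 and 374 at 12 months (-0.83), with Isg15, Oas2 and Stat2 also lower. Gvin1 was the higher gene and lies in a chromosome stretch described next. Irf1, an interferon-induced transcription factor, had an adjusted p of 0.146 from limma.

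Some of the genes with very large changes lay near each other. Among 196 genes past the threshold with a log2 fold change of at least 2 in size, 64 lay in 10 stretches of 3 or more with at most 3 other tested genes between neighbours. Immunoglobulin loci made up 4 of these stretches. Their longest, on chromosome 12, held 20 variable segments from Ighv3-6 to Ighv1-85, all higher. The other 6 were in the natural killer (NK) gene complex and among Ifi200, Serpina and Trim or Gvin1 genes. Coordinates are in GRCm38 from GENCODE vM21, counted from 1. Many of these genes have near-identical neighbours, between which reads could be split. Knockout values set beside them come from a separate table, in which the 12-month controls had equal values.

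NK cells read healthy cells through receptors encoded on chromosome 6. Of 16 NK and cytotoxic genes 6 were higher and 0 lower in limma (0 lower at an unadjusted p under 0.05), with a median of 0.46 and 3 higher leaving out 12-month library 4 or 2-month library 2 or 3, 10 higher leaving out 12-month library 2 and 2 higher among genes with a mean of at least 50. Klrk1, the activating receptor NKG2D, had 129, 139, 111 and 93 at 2 months and 225, 281, 396 and 273 at 12 months, a change of 1.29 ± 0.18 (SE, limma adjusted p = 0.000565), and Ncr1, a defining NK receptor, and Klre1 rose with Nkg7, while Eomes and Ccl5 had adjusted p of 0.75 and 0.16 from limma. The other higher members, Klra8 and Klrb1c, lie in the chromosome 6 stretches given next, so part of this count comes from those stretches. The stretch from Klrc2 to Gm44958 (chr6:129647496-131292338) held 11 genes, 10 higher and 1 lower. Klra8, an activating receptor of the Ly49 family, was listed at 0 in all 4 libraries of 2 months and had 66, 61, 78 and 55 at 12 months (adjusted p = 4.37e-07 from limma). Klra4 was also listed at 0 in all 2-month libraries and had 54, 23, 45 and 53 at 12 months (adjusted p = 6.02e-06 from limma). Klra10 and the pseudogene Klra14-ps were also listed at 0 in all 2-month libraries. Klra9 had 0, 0, 1 and 0 at 2 months and 35, 57, 110 and 49 at 12 months, and the pseudogene Klra13-ps had 15, 8, 14 and 9 at 2 months and 236, 168, 177 and 209 at 12 months. In the 12-month knockout libraries Klra8 had 62, 54, 30 and 57 and Klra4 56, 38, 55 and 29, so both 12-month groups expressed them. Klrb1c, which encodes the NK1.1 antigen, and its neighbour Klrb1b lay in a separate stretch, and Klrb1c had 12, 9, 10 and 11 at 2 months and 35, 43, 66 and 41 at 12 months (2.01). The number of Ly49 genes is known to differ between inbred mouse strains.

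Trim5 and its relatives encode antiviral proteins that bind retroviral capsids, and Gvin1 encodes a very large interferon-inducible GTPase. The stretch from Trim34a to Trim34b (chr7:104244457-104336909) held 4 higher genes and 1 lower. Trim34a had 136, 137, 109 and 125 at 2 months and 535, 494, 631 and 578 at 12 months, a change of 2.13 ± 0.12 (SE, limma adjusted p = 6.43e-07). Its neighbour Trim34b went down, from 163, 181, 137 and 135 to 20, 14, 12 and 8. The knockout libraries, also of 12 months, had 81, 42, 91 and 112 for Trim34a and 86, 77, 98 and 126 for Trim34b, far from the 12-month controls for both genes. Trim12a had 0, 3, 6 and 1 at 2 months and 1692, 1431, 1422 and 1515 at 12 months and 5 to 81 in the knockout libraries. Further along the same chromosome, in the stretch from 9130208D14Rik to Gm1966, Gvin1 had 3, 1, 0 and 2 at 2 months and 212, 156, 445 and 203 at 12 months and 30, 75, 99 and 112 in the knockout libraries. Which strain each mouse of this mixed background carried at these stretches was not tested either. Between the control groups it cannot be told apart from age.

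**Figure D5:**
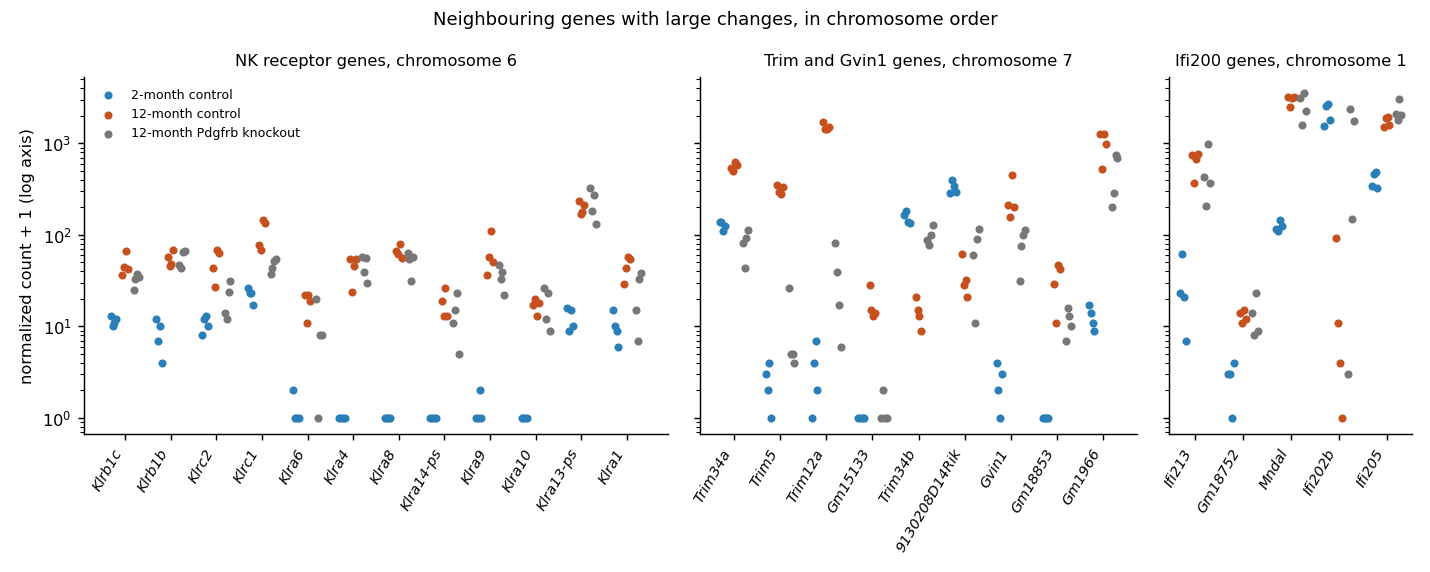
Normalized counts plus 1 (log axis) of neighbouring genes with large changes on chromosomes 6, 7 and 1, in chromosome order, in 2-month controls (blue), 12-month controls (orange) and 12-month Pdgfrb knockout libraries (grey), 4 libraries each. Knockout values of Klra8 (30 to 62) lie near the 12-month controls, those of Trim12a (5 to 81) near the 2-month controls, and those of Ifi202b (2 to 2342) at both.

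Ifi200 genes encode sensors of DNA in the cell. Their stretch from Ifi213 to Ifi205 (chr1:173566283-174031810) held 4 higher genes and 1 lower. Mndal had 114, 109, 144 and 125 at 2 months and 3216, 2487, 3118 and 3233 at 12 months, a change of 4.60 ± 0.12 (SE, limma adjusted p = 5.93e-10), and Ifi205 had 342, 464, 488 and 326 at 2 months and 1496, 1914, 1962 and 1582 at 12 months (2.11). Between them Ifi202b had 1548, 2580, 2688 and 1798 at 2 months and 92, 10, 3 and 0 at 12 months, with 12-month replicate 1 highest of its group. In the knockout libraries Ifi202b had 2, 2342, 147 and 1734, so that 2 of these 4 mice were in the 2-month range and the other 2 were not. The Serpina stretch (chr12:103728156-104269372), of proteinase inhibitor genes, held Serpina1e, which rose from 0, 1, 1 and 0 to 25, 30, 24 and 32, and 4 lower genes. Serpina1a had 14, 25, 15 and 16 at 2 months and was listed at 0 in all 12-month libraries (adjusted p = 6.12e-05 from limma), and Serpina3i had 46, 49, 73 and 76 at 2 months and 5, 5, 7 and 4 at 12 months (-3.30). The Ifi200 and Serpina clusters, like Ly49, are known to vary between strains. Which strain each mouse carried at these loci was not tested. In mice of mixed background it cannot be told apart from age between the control groups. The knockout libraries, all of 12 months, differed among themselves for Ifi202b, as given above.

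Outside the stretches, 2 strongly lower genes were AK157302, an uncharacterized transcript on chromosome 13, with 185, 226, 213 and 219 at 2 months and 15, 14, 17 and 4 at 12 months, and Baiap2l1, which encodes a protein that bends membranes, with 508, 310, 343 and 426 at 2 months and 46, 15, 21 and 21 at 12 months. Unc5a, a netrin receptor gene, had 20, 7, 7 and 13 at 2 months and 216, 197, 193 and 185 at 12 months, a change of 4.08 ± 0.29 (SE, limma adjusted p = 5.46e-06). Cpz, a carboxypeptidase of the matrix, had 1375, 1351, 1452 and 1538 at 2 months and 271, 225, 311 and 292 at 12 months, and Pdgfrl, a receptor-like gene, had 605, 759, 756 and 662 at 2 months and 171, 185, 151 and 128 at 12 months, with changes of -2.38 and -2.13. Across the 20 genes with the largest changes (10 each way, mean of at least 100), the range of the knockout libraries met that of the 12-month controls and not that of the 2-month controls for 14 genes. It met the 2-month range alone for 2 genes, Trim12a and Trim5, both for 1, Ifi202b, and neither for 3, Gvin1, Trim30d and Unc5a.

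Genes of DNA replication and mitosis were lower in 7 and higher in 0 of 36 in limma, or 0 at an unadjusted p under 0.05 (median -0.10, 3 or 4 lower leaving out 2-month library 1, 2, 3 or 4). Ccne1, cyclin E1, which starts DNA replication, had 362, 413, 383 and 376 at 2 months and 240, 232, 180 and 269 at 12 months, a change of -0.75 ± 0.13 (SE, limma adjusted p = 0.00189), and Foxm1, a driver of mitotic genes, changed by -0.51. The replication helicase genes Mcm3 and Mcm6 had adjusted p of 0.95 and 0.422 from limma. Among 13 cell cycle inhibitors and D cyclins 2 were lower, Cdkn1b (-0.45) and Ccnd2 (-0.37), and there were 1 higher leaving out 12-month library 2 or 2-month library 2 and 1 lower leaving out 2-month library 2. Cdkn1a and Ccnd3 had adjusted p of 0.26 and 0.951 from limma. Cdkn2a, a marker of senescent cells, had 10, 19, 6 and 6 at 2 months and 21, 15, 23 and 27 at 12 months and an adjusted p of 0.0523 from limma.

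Immediate early genes respond within minutes to growth factors and to tissue handling. Of 29 tested 8 were lower and 0 higher in limma (5 higher at an unadjusted p under 0.05), with a median of 0.00 and 1 or 2 higher leaving out 12-month library 3 or 4, 3 or 4 lower leaving out 2-month library 2, 3 or 4 and 4 lower without trend and robust estimation. Dusp2, a phosphatase that ends MAP kinase signals, had 6294, 6162, 5805 and 6348 at 2 months and 4631, 3094, 3269 and 3533 at 12 months, a change of -0.78 ± 0.12 (SE, limma adjusted p = 0.000886), and Arid5b had 2165, 2752, 2787 and 2630 at 2 months and 1736, 1814, 2095 and 1700 at 12 months (-0.49). Nr4a1 and Nr4a3 changed by -0.37 and -0.67. The most abundant members, Junb and Egr1, had adjusted p of 0.81 and 0.0763 from limma, and Csrnp1 had one of 0.126.

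Heat shock proteins fold other proteins and rise when cells are stressed. They were lower in 9 and higher in 1 of 24 (median -0.28, 6 lower in all leave-one-out fits). Hsph1 had 8286, 6813, 7871 and 8406 at 2 months and 5086, 3028, 3443 and 3735 at 12 months, a change of -1.06 ± 0.14 (SE, limma adjusted p = 0.000425), and Dnaja1 and Dnajb1, co-chaperones of Hsp70, changed by -0.61 and -0.50. Hspb8, a small heat shock protein gene, was the higher gene, with 1187, 1642, 1509 and 1270 at 2 months and 2566, 3338, 2459 and 2593 at 12 months (0.97). Hspa8 had an adjusted p of 0.0631 from limma. Genes of the endoplasmic reticulum and secretion were higher in 5 of 30 (median 0.15, 2 or 3 higher leaving out 12-month library 4 or 2-month library 1, 2 or 3, 8 higher after quantile normalization and 1 lower leaving out 12-month library 2), with Sdf2l1 at 332, 386, 319 and 355 at 2 months and 588, 499, 531 and 598 at 12 months (0.67) and Pdia3, Pdia6, Tmed2 and Creld2 the others. Hspa5, the main chaperone of this organelle, had an adjusted p of 0.423 from limma.

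Clock genes were higher in 2 and lower in 2 of 20 (median 0.15, 1 lower leaving out 2-month library 2 or 4). The higher genes were Rorb (1.45) and Hlf (0.87) and the lower genes Ciart (-0.44) and Cry1 (-0.28), while Per1 and Bhlhe40 had adjusted p of 0.129 and 0.495 from limma. Of 20 glucocorticoid targets Mt2 was higher (0.68) and Ddit4 and Angptl4 lower, and there were 2 higher leaving out 12-month library 3 and 1 lower leaving out 12-month library 1 or 2-month library 2, 3 or 4. Ddit4, a stress-induced inhibitor of mTOR, had 8170, 6019, 6918 and 7745 at 2 months and 3719, 4486, 4129 and 3873 at 12 months, a change of -0.83 ± 0.11 (SE, limma adjusted p = 0.000381). Dusp1 and Nfkbia had adjusted p of 0.855 and 0.757 from limma. The time of day at which the fat was taken is not given in the labels.

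The respiratory chain is built from subunits encoded in the nucleus and in the mitochondrion. Genes of the mitochondrial genome were lower in 10 of 10 tested (median -1.06), 9 of them in every leave-one-out fit. mt-Nd2, a subunit of complex I, had 22931, 20814, 36820 and 24397 at 2 months and 7379, 10373, 12290 and 8724 at 12 months, a change of -1.43 ± 0.19 (SE, limma adjusted p = 0.000366), and 2-month replicate 3 was highest. Nuclear-encoded subunits were higher in 15 of 45 and lower in 0 in limma, or 0 at an unadjusted p under 0.05 (median 0.25), but 2 were called in all leave-one-out fits and there were 2 to 6 higher leaving out 12-month library 2 or 4 or 2-month library 2, 3 or 4 and 5 higher without trend and robust estimation. Ndufa9 had 1097, 1069, 1044 and 1034 at 2 months and 1192, 1539, 1356 and 1383 at 12 months, a change of 0.36 ± 0.09 (SE, limma adjusted p = 0.0137). The ATP synthase genes Atp5a1 and Atp5b had adjusted p of 0.359 and 0.934 from limma. The share of mitochondrial genome reads, given above, is summed over genes of the same genome, so it is no separate measure of their fall. Its part in the nuclear values was not tested.

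Ribosomal protein genes were higher in 22 of 62 and lower in 0 in limma, or 0 at an unadjusted p under 0.05 (median 0.32). This count depended on single libraries, since 3 were called in all leave-one-out fits and there were 4 to 6 higher leaving out 12-month library 1 or 4 or 2-month library 2, 3 or 4, 41 higher leaving out 12-month library 3, 5 higher without trend and robust estimation and 44 higher with a weight per library. Rpl34 had 3946, 3767, 3396 and 3283 at 2 months and 8853, 8840, 6916 and 11282 at 12 months, a change of 1.30 ± 0.13 (SE, limma adjusted p = 7.05e-05), far above the list's median, and Rps12 had 13968, 10741, 10529 and 11918 at 2 months and 19500, 19268, 12928 and 23584 at 12 months (0.65). Rps3 and Rps14 had adjusted p of 0.189 and 0.174 from limma, and 12-month replicate 4 was highest for all 4 genes. Ribosomal protein genes have many pseudogene copies, so that single members are uncertain. Proteasome subunits were higher in 10 of 37 (median 0.17, 3 to 5 higher leaving out 12-month library 4 or 2-month library 2, 3 or 4, 4 higher without trend and robust estimation and 16 higher with a weight per library), with Psma2 at 1522, 1331, 1404 and 1351 at 2 months and 1822, 1890, 1811 and 2052 at 12 months (0.43) and Psmd13 at 0.50, while the immune subunit Psmb8 had an adjusted p of 0.081 from limma.

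Xenobiotic and retinoid enzymes were higher in 13 of 26 and lower in 1 (median 0.48, 11 higher in all leave-one-out fits, 0 lower leaving out 12-month library 4 or 2-month library 1, 3 or 4). Cyp1b1, a stromal cytochrome, had 303, 423, 494 and 375 at 2 months and 888, 1074, 1187 and 856 at 12 months, a change of 1.34 ± 0.15 (SE, limma adjusted p = 0.000145). Aldh1a3, which makes retinoic acid, had 518, 821, 734 and 349 at 2 months and 1293, 1722, 1413 and 1732 at 12 months (1.41), and the glutathione transferases Gstm1 and Gsta3 changed by 0.85 and 1.97. Cyp1a1, the classical target of the aryl hydrocarbon receptor, was the lower gene. Cyp4b1 and Ephx1 had adjusted p of 0.488 and 0.656 from limma.

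Tissues that can be carried along with the depot were also measured. Skeletal muscle genes were lower in 1 of 22, Pax7 of muscle stem cells (-1.66), with 1 higher leaving out 12-month library 3 or 2-month library 4, 0 lower leaving out 2-month library 4 and 2 or 3 lower leaving out 12-month library 2 or 2-month library 2, and their summed level was 8889, 4595, 13966 and 11258 at 2 months and 6119, 13299, 7202 and 6583 at 12 months. Skin and glandular epithelial genes had 0 higher and 0 lower of 14 in limma (0 and 0 at an unadjusted p under 0.05), with 2 higher leaving out 12-month library 3, and a summed level of 2844, 2027, 4994 and 2036 at 2 months and 3942, 2365, 1266 and 3993 at 12 months. Both lists overlapped between the ages and varied within each. Krt14, the keratin of basal skin cells, had 18, 7, 39 and 1 at 2 months and 532, 52, 5 and 164 at 12 months. Erythroid genes were higher in 3 of 9, Hbb-bs (0.81), Alas2 (0.50) and Bpgm (0.40), with 0 or 1 higher leaving out 12-month library 2 or 4 or 2-month library 2 or 3 and 5 higher leaving out 12-month library 3, and 12-month replicate 2 had the highest summed level, 45756, 41690, 27604 and 40850 at 2 months and 53552, 102937, 47743 and 60879 at 12 months. Of 8 mesothelial genes 1, Krt19, passed the filter, and it had an adjusted p of 0.328 from limma. The 4 Y-linked genes were expressed in all 8 libraries with 0 higher and 0 lower in limma (0 and 1 at an unadjusted p under 0.05), and there were 1 lower leaving out 12-month library 3. Ddx3y, a helicase gene, was at 3904, 3690, 4090 and 4044 at 2 months and 3897, 3067, 3445 and 3604 at 12 months.

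Listed genes that stayed below the filter were not tested. Among matrix and signalling lists these included Col2a1, Kera, Chad, Acan, Mmp8, Mmp10, Mmp13, Phlda2, Ascl2, Magel2, Igfbp2, Wif1, Dkk1, Notum, Sp5 and Grem1, and among adipocyte lists Elovl3, Cpt1b, Zic1, Esrrg and Scd4. Among immune lists they included Ccl21a, Ly6g, Elane, Camp, Stfa1, Stfa2l1, Epx, Ear6, Cfi, Ccl1, Ccl19, Ccl20, Cxcl3, Cxcl5, Cxcl11, Cxcl15, Il23a, Il4, Il5, Il9, Il25, Calca, Nmur1, Mzb1, Ighe and Chst4. Others were Hamp, Tat, mt-Nd3, mt-Nd4l, mt-Atp8, Gsta1, Gsta2, Ugt1a6a, Ptgds, Pla2g2a, Pla2g5, Hoxa11, Hoxa13, Hoxc12, Hoxc13, Hoxd1, Hoxd3, Hoxd11, Myod1, Krt1, Krt15, Krt17, Krt77, Lor, Flg, Elf5, Csn2, Klf1, Hemgn, Msln, Upk3b, Wt1, Lrrn4, Muc16, Upk1b and Bnc1. The defining markers of neutrophils (Ly6g, Elane, Camp), mesothelium (Msln, Upk3b, Wt1) and cornified skin (Lor, Flg) were thus below the filter.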

How the data were processed

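SVF RNA from 8 control mice was sequenced from polyadenylated RNA with a directional kit. Per the labels and the study's methods, the authors trimmed reads with Trim Galore 0.6.0, aligned them with STAR 2.7.0e to GRCm38 and divided gene counts by DESeq2 1.26.0 size factors. The deposited values are these normalized counts rounded to whole numbers, treated here as a score and not as raw counts, so that no count model was fitted. The counting tool and its strand setting are not given in the sources used here. A separate table held the 4 knockout libraries, and its columns for the 12-month controls had equal values in 100% of 55535 genes compared. All 55536 identifiers were found in GENCODE vM21. A spreadsheet's date conversion had damaged 27 names, and gene names were taken by identifier from the knockout table. No other columns of per-sample values were present.

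A value of 10 or more in 4 or more of 8 libraries was required, log2(value + 1) was taken, and limma 3.58.1 in R 4.3.3 with trend and robust estimation compared the ages (two-sided, Benjamini-Hochberg adjusted p under 0.05). Tables and plots were made with Python 3.11.15, pandas 2.3.3 and matplotlib 3.10.9. The method was also run on simulated counts with the means and spread of the 2-month libraries. The outcome of that run is not reported here, and it is not used as support for the calls. Depth was estimated at 21.0 to 29.0 M counts per library. Nothing in the labels says that the replicates share litters or days. Members and all 61 gene lists were chosen with earlier results of these data known. Genes were named by a rule: those the study names, the 10 higher and 10 lower genes with the largest changes (mean of at least 100), of each list the 4 called members of smallest p and the 2 uncalled members of highest mean, members of counts of 5 or fewer, and genes of the chromosome stretches. Other named genes were chosen after their values were seen, namely the fibroblastic markers, Pi16, Lep, Sox10, Trem2, Ccl2, Krt14, members named to complete a count of 6 or more, and the genes that stayed below the filter. The alternatives were other pseudocounts (0.5 and 5), filters, scalings and limma options, a replicate block and leaving out each library. A few members counted in the lists are not reported by name here.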

Additional observations from a re-analysis of the deposited data

Results flagged for a closer look

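In 162 groups of 4 libraries, made of the summed lists and the genes with the largest changes at each age, 11 held a library far from the other 3 relative to the group's range. Chance gives about 1 in 20 such groups.

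At 12 months, replicate 2 was the library apart in 6 of them. Its summed normalized counts were 151680 for collagen processing genes (group median 114861.5), 85231 for IGF genes (72267.5), 193878 for mature adipocyte genes (138555.5), 621924 for immediate early genes (536146.5) and 13299 for skeletal muscle genes (6892.5). Its normalized count of Mndal, an Ifi200 gene, was 2487 against a median of 3167. At 12 months replicate 1 had 92 for Ifi202b against a median of 6.5.

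At 2 months replicate 1 had a summed level of 20048 for resident macrophage scavenger genes (group median 28653) and 125434 for endoplasmic reticulum and secretory genes (137755.5), and 148 for Ighg2c, an antibody heavy chain gene, against 25.0. Replicate 3 at 2 months had 480055 for mitochondrial genome genes against a median of 315585.5. What set these libraries apart was not tested.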

How the results depend on the processing

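The number of lower genes, 1874 as reported, was 1246, 1220 and 1145 without 2-month replicates 2, 3 and 4, and ranged from 1145 to 2014 over the 8 leave-one-out fits. That of higher genes, 1853 as reported, ranged from 1260 to 2004. These fits rest on 7 libraries. Under the other alternatives both counts stayed within 1.5 times those reported: 1457 higher and 1375 lower without trend and robust estimation, 1677 and 1635 with no filter, 1613 and 1630 among genes averaging 50 or more, 1851 and 1867 with a pseudocount of 0.5, 1871 and 1893 with 5, 1879 and 1849 after median ratio rescaling, 1828 and 1844 after quantile normalization, and 2178 and 2283 with a weight per library. With a replicate block 1592 genes were higher and 1524 lower. Deviations of same-numbered libraries from their group means correlated at 0.157, -0.216, -0.048 and -0.176. With 4 libraries an age, these values cannot show whether same-numbered libraries shared a litter or a day. Of the 3727 genes called, between 2364 (without 2-month replicate 4) and 3720 (pseudocount of 5) were called in the same direction under each alternative. Over 1327 genes of lists and stretches and 17 alternatives, 21037 results stayed on their side of the threshold, 1026 lost it, 362 gained it and 0 changed direction among those called. Values are rounded and carry no exact depth, with 4 libraries an age and 1 depot, so a member that did not pass may still differ.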
